A study of Mus musculus with 12 samples.

Results

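The antioxidant and NRF2 pathway genes described here are 41 listed genes of glutathione, thioredoxin, peroxide and iron handling, with the regulators that control them. They were taken by symbol from a list, with no threshold on their values but with earlier results of these data known. Shares of the list beside those of all genes are therefore descriptions. All 41 were among the 17283 genes of the deposited table. RNA of the medial prefrontal cortex (mPFC) was sequenced in 12 libraries, 3 from each of 4 groups. BTBR mice, an inbred line that serves as an autism model, received astragaloside IV (BTBR ASIV) or the DMSO solvent (BTBR vehicle). C57 mice, the strain that the labels call WT, received the same compound (C57 ASIV) or DMSO (C57 vehicle). Injections were intraperitoneal and went on for 7 days in every group. Astragaloside IV is a saponin of Astragalus root, and the study asked about its effect on neurotransmission in BTBR mice. The labels give no age, sex or dose, and do not say whether each library came from 1 animal, so p-values measure only the spread between these libraries.

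NRF2, the protein of Nfe2l2, is the transcription factor that switches on antioxidant and detoxifying genes through a short DNA motif, the antioxidant response element. KEAP1 holds NRF2 in the cytoplasm and sends it to degradation until oxidants or electrophiles modify KEAP1. NRF2 is therefore controlled mainly at the protein level, which RNA does not measure. In brain, astrocytes are known for a stronger NRF2 response than neurons.

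Values are FPKM, fragments per kilobase of exon scaled to the depth of each library, and differences are on the log2(FPKM + 1) scale with the standard error of the limma model. That scale understates the change of genes with few FPKM. A gene was called when its adjusted p (Benjamini-Hochberg over the 13586 genes tested) was under 0.05, and "rose", "fell", "higher" and "lower" are used below for called genes or for named values. All 41 genes had at least 1 FPKM in 3 or more libraries and were tested. Depth, recovered from the FPKM steps, was 16166327 to 18660041 fragments per library.

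By the mean of C57 vehicle mice, 8 of the 41 genes were under 5 FPKM, 14 between 5 and 20, 14 between 20 and 100, and 5 at 100 FPKM or more. Fth1, the heavy chain of ferritin, stood at the top with 1966 ± 163 FPKM in C57 vehicle mice (SD, n = 3). Nqo1, the quinone reductase often used as a readout of NRF2, stood at the bottom with 1.73 ± 0.62 FPKM in the same mice. The median gene of the list had 19.0 FPKM over all libraries, against 6.06 FPKM for all genes tested. Fragments per gene were not compared with those of all genes. Some genes of the list rest on few, such as Nqo1 with 13 to 73 fragments per library and Hmox1 with 38 to 96.

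**Figure D1:**
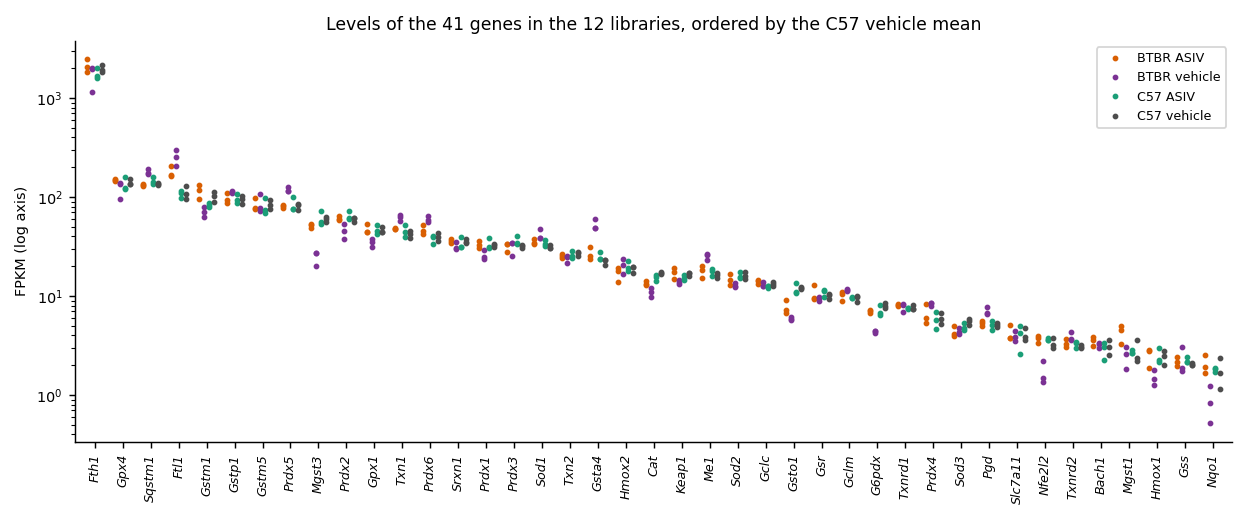
Level of the 41 genes in each of the 12 libraries, in FPKM on a log axis, with genes ordered by their mean in C57 vehicle mice and libraries coloured by group. Fth1 lies highest, and Nqo1, Gss and Hmox1 lie lowest, each near 2 FPKM in most libraries.

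In BTBR ASIV mice against BTBR vehicle mice, 12 of the 41 genes rose, 8 fell and 21 did not pass (limma, 48.8% called). Across all genes tested, 29.1% were called in this comparison, 13.7% higher and 15.4% lower. The groups did not overlap for 24 of the 41 genes, against 39.1% of all genes tested. Nfe2l2 itself rose, as did Nqo1, Hmox1, G6pdx and 4 glutathione transferases, while Gsta4, Prdx5, Me1 and Sqstm1 were among those that fell. The median difference of the list was 0.09, against -0.01 for all genes tested. Among genes of at least 5 FPKM in 3 libraries, where most of the list lies, 38.1% were called, a share nearer to that of the list.

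In BTBR vehicle mice against C57 vehicle mice, 12 of the 41 genes were higher, 13 were lower and 16 did not pass (61% called). Across all genes tested, 43.1% were called, 22.3% higher and 20.8% lower, and among genes of at least 5 FPKM in 3 libraries 52.2% were called. The groups did not overlap for 27 of the 41 genes, against 53.3% of all genes tested. The median difference of the list was -0.03, against 0.01 for all genes tested. The list thus held genes on both sides in each comparison and had no common direction. The comparison of ASIV with vehicle in BTBR mice and this one share the 3 BTBR vehicle libraries, so opposite signs of a gene in the pair are not separate evidence. Against the 9 other libraries together, the 3 BTBR vehicle libraries lay above for 10 of the 41 genes and below for 10, a description chosen after the values were seen. Across all genes tested, 28.7% had the BTBR vehicle libraries outside the range of the 9 others.

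**Figure D2:**
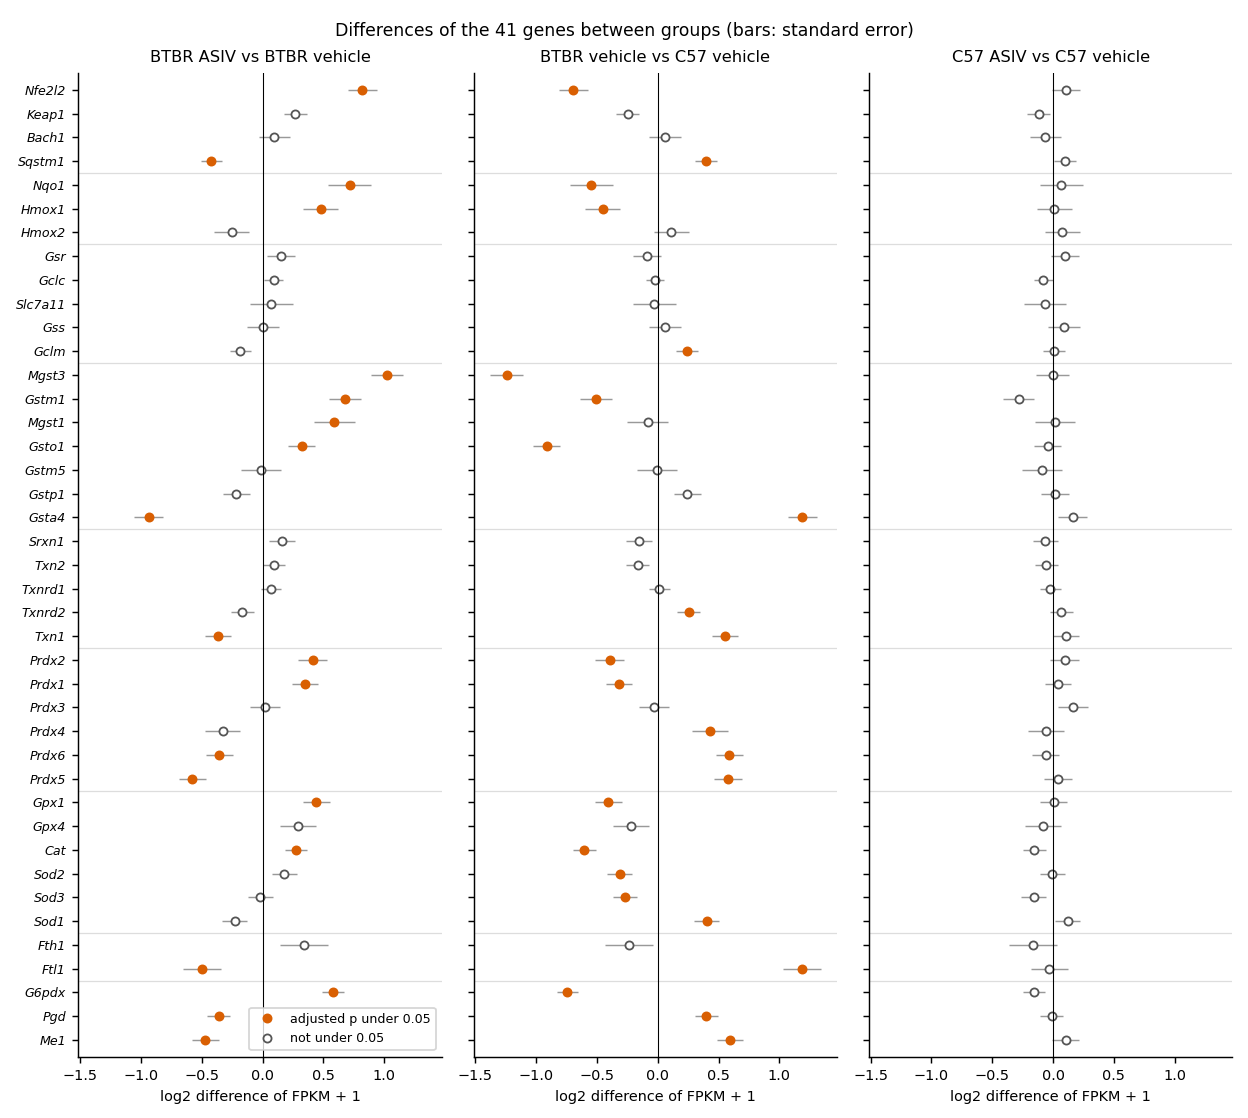
Log2 differences of the 41 genes (log2 of FPKM + 1, bars are standard errors) for BTBR ASIV against BTBR vehicle, BTBR vehicle against C57 vehicle, and C57 ASIV against C57 vehicle mice, with filled points for an adjusted p under 0.05. In the BTBR comparison 12 points are filled above 0 and 8 below, and in the C57 comparison none is filled.

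The BTBR vehicle libraries also lay below the rest in mitochondrial fragments and, narrowly, in neuron markers. Their oligodendrocyte, astrocyte and microglia marker sums overlapped those of other groups. Protein-coding genes of the mitochondrial genome took 3.03 to 3.23% of fragments in BTBR ASIV, 0.342 to 0.640% in BTBR vehicle, 2.96 to 4.72% in C57 ASIV and 4.48 to 4.83% in C57 vehicle libraries. The 12 neuron markers summed to 1779.5 to 1928 FPKM in BTBR ASIV, 1592 to 1756 in BTBR vehicle, 1922 to 2181 in C57 ASIV and 2143 to 2239.8 in C57 vehicle libraries, so neuron markers were abundant in every library and lowest in BTBR vehicle. Of these 12 markers, 1 rose and none fell in BTBR ASIV against BTBR vehicle mice, and none was higher and 4 were lower in BTBR vehicle against C57 vehicle mice. The 12 oligodendrocyte markers summed to 668 to 1237 FPKM in BTBR ASIV, 793 to 1723 in BTBR vehicle, 777 to 1253 in C57 ASIV and 863 to 1009 in C57 vehicle libraries, with the lowest BTBR values in replicate 2 of each treatment. Of these, none rose and 2 fell in BTBR ASIV against BTBR vehicle mice, and 4 were higher and 1 was lower in BTBR vehicle against C57 vehicle mice. The 12 astrocyte markers summed to 1491 to 1623 FPKM in BTBR ASIV, 1379.6 to 1744 in BTBR vehicle, 1149 to 1340.1 in C57 ASIV and 1357 to 1559 in C57 vehicle libraries. Of these, 1 rose and 1 fell in BTBR ASIV against BTBR vehicle mice, and 3 were higher and 4 lower in BTBR vehicle against C57 vehicle mice. Microglia markers summed to 267 to 341 FPKM in BTBR ASIV, 254 to 315 in BTBR vehicle, 241 to 263 in C57 ASIV and 258 to 310 in C57 vehicle libraries. Of these 12, 2 rose and 3 fell in BTBR ASIV against BTBR vehicle mice, and 3 were higher and 4 lower in BTBR vehicle against C57 vehicle mice. In the same 2 comparisons, 29.1% and 43.1% of all genes tested were called. The shares were 8.33% and 33.3% of neuron, 16.7% and 41.7% of oligodendrocyte, 16.7% and 58.3% of astrocyte, and 41.7% and 58.3% of microglia markers. With 12 markers per type, these counts are not read as a change of a cell type. The part of the mitochondrial and marker values in the gene results was not tested. In bulk tissue, fewer cells of a type and less RNA per cell cannot be told apart.

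Among the regulators, Nfe2l2 changed most. It had 3.37, 3.74 and 3.99 FPKM in BTBR ASIV, 2.18, 1.36 and 1.5 in BTBR vehicle, 3.57, 3.77 and 3.56 in C57 ASIV, and 3.01, 3.17 and 3.76 in C57 vehicle libraries. Every BTBR vehicle library lay below all the others, and the other groups overlapped. The difference was 0.82 ± 0.12 in BTBR ASIV against BTBR vehicle mice (adjusted p = 0.000475, limma) and -0.70 ± 0.12 in BTBR vehicle against C57 vehicle mice (adjusted p = 0.000612). Between BTBR ASIV and C57 ASIV mice it was 0.02 ± 0.12 (adjusted p = 0.947). Nfe2l2 lies on chromosome 2 (chr2:75675513-75704641, minus strand, mm10 coordinates of GENCODE M21), and its exons held 88 to 280 fragments per library.

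Sqstm1, the autophagy receptor p62 that also binds KEAP1 and is itself a known NRF2 target, moved the other way. It had 134, 130.1 and 136 FPKM in BTBR ASIV, 173, 192 and 172 in BTBR vehicle, 140.4, 137 and 159 in C57 ASIV, and 139.8, 133 and 134 in C57 vehicle libraries. The BTBR vehicle libraries were the highest of all 12, by a difference of -0.42 ± 0.09 in BTBR ASIV against BTBR vehicle (adjusted p = 0.00407) and 0.40 ± 0.09 in BTBR vehicle against C57 vehicle mice (adjusted p = 0.00354).

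Keap1, the inhibitor, did not pass. It had 17.3, 14.8 and 19.3 FPKM in BTBR ASIV, 13.9, 13.4 and 14.7 in BTBR vehicle, 16.1, 14.7 and 15.3 in C57 ASIV, and 17, 16.0 and 17.3 in C57 vehicle libraries. The BTBR vehicle values were below those of both groups they were compared with, at 0.27 ± 0.10 in BTBR ASIV against BTBR vehicle (adjusted p = 0.0506) and -0.25 ± 0.10 in BTBR vehicle against C57 vehicle mice (adjusted p = 0.0539). Under 8 of 24 alternative settings the first of these was called, and under 7 the second. Bach1, the heme-sensing repressor that competes with NRF2 for the same DNA motif, had 3.11, 3.87 and 3.57 FPKM in BTBR ASIV, 3.38, 2.96 and 3.30 in BTBR vehicle, 3.38, 3.04 and 2.26 in C57 ASIV, and 2.54, 3.61 and 3.03 in C57 vehicle libraries. Its groups overlapped, at 0.10 ± 0.13 (adjusted p = 0.604) and 0.06 ± 0.13 (adjusted p = 0.734) for the same pair of comparisons.

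**Figure D3:**
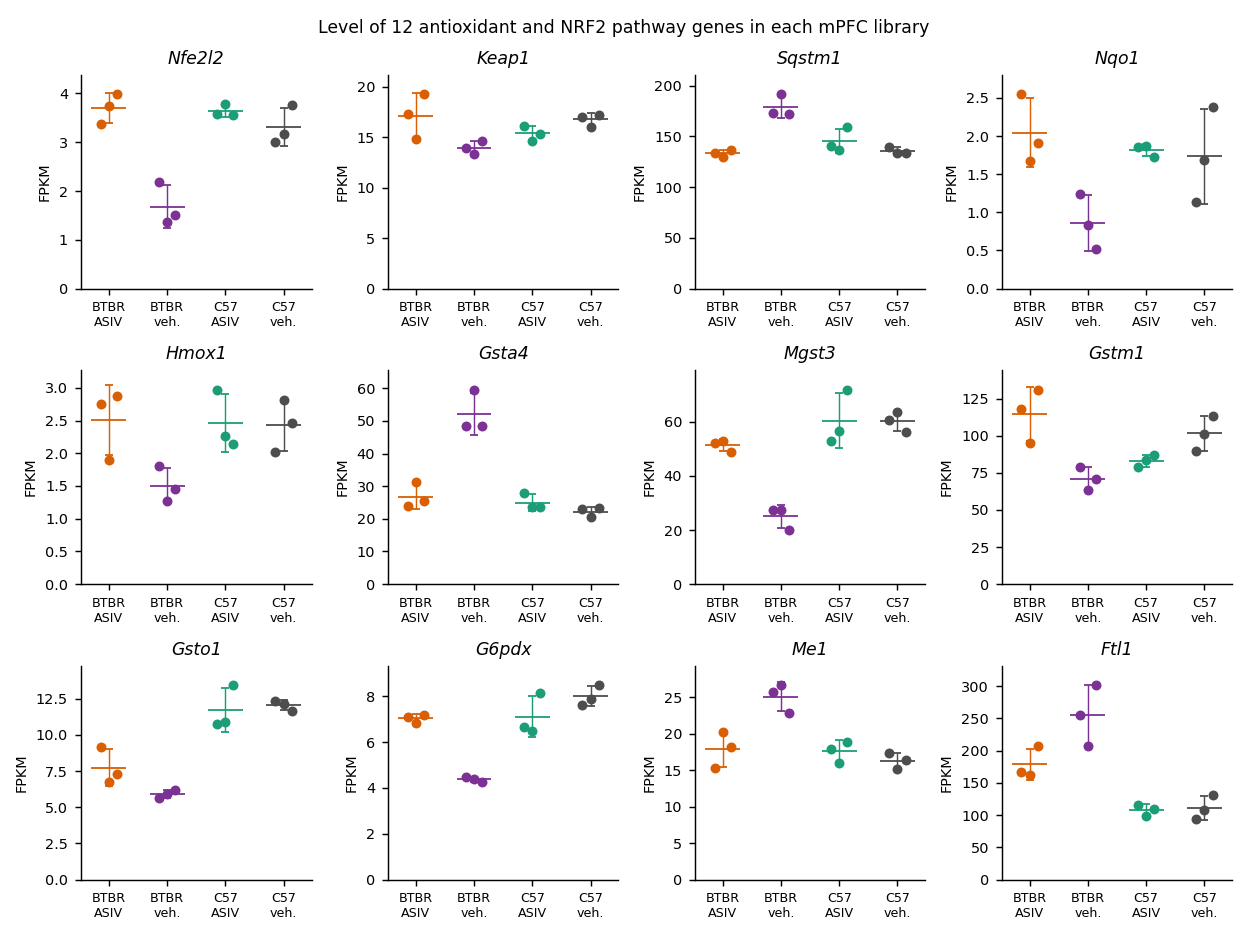
FPKM of 12 of the genes in each library, with a line at the mean of 3 libraries and bars for the SD, in the order BTBR ASIV, BTBR vehicle, C57 ASIV and C57 vehicle. The BTBR vehicle points lie below all other libraries for Nfe2l2, Keap1, Hmox1, Mgst3, Gsto1 and G6pdx, and above them for Sqstm1, Gsta4, Me1 and Ftl1.

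Of the 3 heme and quinone genes of the list, 2 rose in BTBR ASIV against BTBR vehicle mice, both at low levels. That is 66.7% called, against 29.1% of all genes tested. With 3 genes here, and 2 to 7 in the families below, such counts are not read as a result about a family. Nqo1 had 2.55, 1.67 and 1.91 FPKM in BTBR ASIV, 1.25, 0.829 and 0.518 in BTBR vehicle, 1.85, 1.87 and 1.73 in C57 ASIV, and 1.14, 1.68 and 2.38 in C57 vehicle libraries. BTBR ASIV and BTBR vehicle libraries did not overlap, while 1 C57 vehicle library lay below the highest BTBR vehicle library. The difference was 0.72 ± 0.18 in BTBR ASIV against BTBR vehicle (adjusted p = 0.00991) and -0.55 ± 0.18 in BTBR vehicle against C57 vehicle mice (adjusted p = 0.0258). These rest on 13 to 73 fragments per library, and with a pseudocount of 0.1 they were 1.21 and -0.94. Hmox1, the inducible heme oxygenase, had 2.76, 1.89 and 2.87 FPKM in BTBR ASIV, 1.80, 1.27 and 1.45 in BTBR vehicle, 2.97, 2.27 and 2.14 in C57 ASIV, and 2.02, 2.81 and 2.46 in C57 vehicle libraries. The BTBR vehicle libraries were again the lowest, with 0.48 ± 0.14 in BTBR ASIV against BTBR vehicle (adjusted p = 0.0251) and -0.45 ± 0.14 in BTBR vehicle against C57 vehicle mice (adjusted p = 0.0228). Hmox2, the constitutive heme oxygenase, averaged 16.9 ± 2.69 FPKM in BTBR ASIV and 20.4 ± 3.57 in BTBR vehicle mice and did not pass.

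In glutathione synthesis and recycling, none of Gclc and Gclm (the catalytic and modifier subunits of the rate-limiting enzyme), Gss (glutathione synthetase), Gsr (glutathione reductase) and Slc7a11 (the cystine importer) passed in BTBR ASIV against BTBR vehicle mice, with differences between -0.18 and 0.15. Gclm was the 1 gene of the 5 called between the strains under vehicle, with 11.6, 11.1 and 11.7 FPKM in BTBR vehicle and 8.76, 10.1 and 9.87 in C57 vehicle libraries (0.24 ± 0.09, adjusted p = 0.045). Gclc and Slc7a11, both well-known NRF2 targets, averaged 13.9 ± 0.715 and 4.22 ± 0.806 FPKM in BTBR ASIV mice, against 13.0 ± 0.748 and 3.94 ± 0.483 FPKM in BTBR vehicle mice.

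Glutathione transferases, which join glutathione to reactive compounds, held the largest differences on the log2(FPKM + 1) scale, which understates low genes such as Nqo1 and Nfe2l2. In BTBR ASIV against BTBR vehicle mice 4 of 7 rose, 1 fell and 2 did not pass (71.4% called, against 29.1% of all genes tested). Gsta4, which clears the lipid peroxidation product hydroxynonenal, had 23.8, 31.2 and 25.4 FPKM in BTBR ASIV, 48.4, 59.6 and 48.4 in BTBR vehicle, 27.9, 23.6 and 23.5 in C57 ASIV, and 22.9, 20.5 and 23.2 in C57 vehicle libraries. The gene lies on chromosome 9 (chr9:78182774-78209349, plus strand). BTBR vehicle libraries stood above all the others, at -0.94 ± 0.12 in BTBR ASIV against BTBR vehicle (adjusted p = 0.000291) and 1.19 ± 0.12 in BTBR vehicle against C57 vehicle mice (adjusted p = 2.14e-05). Mgst3, a microsomal transferase with peroxidase activity, had 52.2, 53.0 and 49.0 FPKM in BTBR ASIV, 27.5, 27.4 and 20.2 in BTBR vehicle, 52.9, 56.5 and 72.0 in C57 ASIV, and 60.6, 63.5 and 56.3 in C57 vehicle libraries. Mgst3 lies on chromosome 1 (chr1:167371966-167393841, minus strand). Its BTBR vehicle libraries were below all others, at 1.02 ± 0.13 (adjusted p = 0.000298) and -1.24 ± 0.13 (adjusted p = 3.02e-05) in the same order.

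Gstm1, a cytosolic transferase abundant in astrocytes, had 118, 95.3 and 131 FPKM in BTBR ASIV, 79.2, 63.2 and 70.7 in BTBR vehicle, 78.7, 83.5 and 86.8 in C57 ASIV, and 90.1, 101 and 113 in C57 vehicle libraries. BTBR ASIV libraries lay above the BTBR vehicle and C57 ASIV ones, and C57 ASIV libraries overlapped those of BTBR vehicle. The differences were 0.68 ± 0.13 in BTBR ASIV against BTBR vehicle (adjusted p = 0.00238) and -0.51 ± 0.13 in BTBR vehicle against C57 vehicle mice (adjusted p = 0.0075). Gsto1, an omega-class transferase that reduces dehydroascorbate, had 9.15, 6.74 and 7.28 FPKM in BTBR ASIV, 5.67, 5.92 and 6.19 in BTBR vehicle, 10.7, 10.9 and 13.4 in C57 ASIV, and 12.3, 12.1 and 11.7 in C57 vehicle libraries. Here both BTBR groups stayed below both C57 groups. The strain difference under vehicle was -0.91 ± 0.11 (adjusted p = 6.4e-05), and that of BTBR ASIV against BTBR vehicle was 0.32 ± 0.11 (adjusted p = 0.045), a call lost under 15 of 24 alternatives (0.21 without BTBR ASIV replicate 1, adjusted p = 0.167). Mgst1, a second microsomal member, had 3.26, 4.56 and 5 FPKM in BTBR ASIV, 2.61, 3.05 and 1.84 in BTBR vehicle, 2.83, 2.67 and 2.63 in C57 ASIV, and 2.34, 3.57 and 2.23 in C57 vehicle libraries. It rose in BTBR ASIV against BTBR vehicle (0.59 ± 0.17, adjusted p = 0.0193) but did not pass between the strains under vehicle (-0.08 ± 0.17, adjusted p = 0.722). Gstm5 and Gstp1 did not pass in either comparison.

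NADPH is the reducing power on which both the glutathione and thioredoxin systems draw. Of the 3 genes that supply it, 1 rose and 2 fell in BTBR ASIV against BTBR vehicle mice. All 3 were thus called, against 29.1% of all genes tested. G6pdx, the entry enzyme of the pentose phosphate pathway, had 7.10, 6.82 and 7.2 FPKM in BTBR ASIV, 4.47, 4.41 and 4.26 in BTBR vehicle, 6.67, 6.50 and 8.14 in C57 ASIV, and 7.64, 7.90 and 8.49 in C57 vehicle libraries. BTBR vehicle libraries lay below all others, at 0.58 ± 0.09 in BTBR ASIV against BTBR vehicle (adjusted p = 0.000698) and -0.74 ± 0.09 in BTBR vehicle against C57 vehicle mice (adjusted p = 5.92e-05). Me1, the cytosolic malic enzyme, had 15.4, 20.2 and 18.1 FPKM in BTBR ASIV, 25.7, 26.7 and 22.9 in BTBR vehicle, 17.9, 15.9 and 18.9 in C57 ASIV, and 17.3, 15.2 and 16.3 in C57 vehicle libraries. Pgd, the next NADPH-forming enzyme after G6pdx in the same pathway, had 4.93, 5.55 and 5.33 FPKM in BTBR ASIV, 6.79, 6.60 and 7.82 in BTBR vehicle, 5.59, 4.5 and 5.15 in C57 ASIV, and 5.37, 5.14 and 4.83 in C57 vehicle libraries. For both of these the BTBR vehicle libraries were above all others. Me1 differed by -0.47 ± 0.11 (adjusted p = 0.00721) in BTBR ASIV against BTBR vehicle and by 0.59 ± 0.11 (adjusted p = 0.00104) in BTBR vehicle against C57 vehicle mice. Pgd differed by -0.36 ± 0.10 (adjusted p = 0.0137) and 0.40 ± 0.10 (adjusted p = 0.00527) in the same order. G6pdx and Pgd, both of the pentose phosphate pathway, thus had opposite signs in each comparison.

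Peroxiredoxins, the thiol peroxidases that remove most cellular hydrogen peroxide, also went both ways. In BTBR ASIV against BTBR vehicle mice 2 of 6 rose, 2 fell and 2 did not pass (66.7% called, against 29.1% of all genes tested). Prdx5, found in mitochondria, peroxisomes and cytosol, had 83.0, 80.5 and 76.8 FPKM in BTBR ASIV, 116, 128 and 116 in BTBR vehicle, 75.2, 75.1 and 99.3 in C57 ASIV, and 82.7, 73.6 and 84.4 in C57 vehicle libraries. Prdx6, which also repairs oxidised phospholipids, had 45.3, 42.2 and 52.5 FPKM in BTBR ASIV, 63.9, 56.5 and 59.1 in BTBR vehicle, 40.6, 33.4 and 39.7 in C57 ASIV, and 35.9, 39.2 and 43.4 in C57 vehicle libraries. BTBR vehicle libraries were the highest for both genes. Prdx5 differed by -0.58 ± 0.11 in BTBR ASIV against BTBR vehicle (adjusted p = 0.00273) and by 0.58 ± 0.11 in BTBR vehicle against C57 vehicle mice (adjusted p = 0.00159), and Prdx6 by -0.36 ± 0.11 (adjusted p = 0.0313) and 0.59 ± 0.11 (adjusted p = 0.00128).

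The typical cytosolic pair, Prdx1 and Prdx2, moved the other way. Prdx1 had 30.4, 32.9 and 36.0 FPKM in BTBR ASIV, 28.9, 23.7 and 24.9 in BTBR vehicle, 31.5, 30.7 and 38.2 in C57 ASIV, and 32.4, 31.4 and 33.4 in C57 vehicle libraries. Prdx2, the form known to be abundant in neurons, had 59.4, 58.0 and 63.9 FPKM in BTBR ASIV, 45.6, 53.1 and 37.9 in BTBR vehicle, 60.7, 59.8 and 71.5 in C57 ASIV, and 61.9, 56.3 and 60.7 in C57 vehicle libraries. BTBR vehicle libraries were the lowest for both genes. Prdx1 differed by 0.35 ± 0.11 in BTBR ASIV against BTBR vehicle (adjusted p = 0.0282) and by -0.32 ± 0.11 in BTBR vehicle against C57 vehicle mice (adjusted p = 0.0293), and Prdx2 by 0.41 ± 0.12 (adjusted p = 0.0206) and -0.39 ± 0.12 (adjusted p = 0.0177). Prdx4, the peroxiredoxin of the endoplasmic reticulum, had 5.33, 6.03 and 8.22 FPKM in BTBR ASIV, 8.48, 7.95 and 8.58 in BTBR vehicle, 6.82, 4.62 and 5.71 in C57 ASIV, and 5.27, 6.67 and 5.90 in C57 vehicle libraries. It was higher in BTBR vehicle than in C57 vehicle mice (0.43 ± 0.15, adjusted p = 0.0317), while BTBR ASIV replicate 3 overlapped the BTBR vehicle libraries (-0.33 ± 0.15, adjusted p = 0.111). Prdx3, the mitochondrial form, did not pass in either comparison, with 31.7 ± 3.45 FPKM in BTBR ASIV and 31.3 ± 4.97 FPKM in BTBR vehicle mice.

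In the thioredoxin system, which keeps the peroxiredoxins reduced, 1 of 5 genes passed in BTBR ASIV against BTBR vehicle mice. That is 20% called, against 29.1% of all genes tested. Txn1, cytosolic thioredoxin, had 47.2, 48.7 and 47.5 FPKM in BTBR ASIV, 56.7, 65.7 and 63.6 in BTBR vehicle, 44.5, 39.3 and 52.3 in C57 ASIV, and 45.0, 38.3 and 42.4 in C57 vehicle libraries. Its BTBR vehicle libraries were the highest, at -0.37 ± 0.11 in BTBR ASIV against BTBR vehicle (adjusted p = 0.0246) and 0.55 ± 0.11 in BTBR vehicle against C57 vehicle mice (adjusted p = 0.00159). Txnrd2, the mitochondrial thioredoxin reductase, was higher in BTBR vehicle than in C57 vehicle mice (0.25 ± 0.09, adjusted p = 0.044). Txn2, Txnrd1 and Srxn1, which are mitochondrial thioredoxin, cytosolic thioredoxin reductase and the repair enzyme of over-oxidised peroxiredoxins, passed in neither.

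The enzymes that remove superoxide and peroxide directly included Cat, catalase of the peroxisome, with 13.1, 13.2 and 14.2 FPKM in BTBR ASIV, 12.1, 11 and 9.85 in BTBR vehicle, 14.1, 15.7 and 16.3 in C57 ASIV, and 16.7, 17.1 and 17.6 in C57 vehicle libraries. BTBR vehicle libraries were lowest, and BTBR ASIV libraries lay between them and C57 vehicle. Cat differed by 0.28 ± 0.09 in BTBR ASIV against BTBR vehicle (adjusted p = 0.0361) and by -0.60 ± 0.09 in BTBR vehicle against C57 vehicle mice (adjusted p = 0.000273). Gpx1, the main cytosolic glutathione peroxidase, had 44.8, 44.8 and 53.4 FPKM in BTBR ASIV, 37.9, 31.6 and 34.8 in BTBR vehicle, 45.5, 42.2 and 51.9 in C57 ASIV, and 44.7, 44.1 and 50.1 in C57 vehicle libraries. It too was lowest in BTBR vehicle mice, at 0.44 ± 0.11 (adjusted p = 0.00987) and -0.41 ± 0.11 (adjusted p = 0.0103) in the same order. Gpx4, which protects membrane lipids from peroxidation, passed in neither comparison, with 149 ± 4.21 FPKM in BTBR ASIV and 123 ± 24.6 FPKM in BTBR vehicle mice.

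The superoxide dismutases did not share a direction. Sod1, the cytosolic copper and zinc enzyme, had 34.7, 33.2 and 37.9 FPKM in BTBR ASIV, 38.9, 38.2 and 47.8 in BTBR vehicle, 33.5, 31.9 and 36.6 in C57 ASIV, and 30.5, 30.3 and 32.6 in C57 vehicle libraries. Sod2, the mitochondrial manganese enzyme, had 12.8, 14.4 and 16.9 FPKM in BTBR ASIV, 12.6, 13.7 and 12.2 in BTBR vehicle, 15.3, 15.6 and 17.5 in C57 ASIV, and 17.5, 16.1 and 15.0 in C57 vehicle libraries. Between BTBR vehicle and C57 vehicle mice Sod1 was higher (0.40 ± 0.10, adjusted p = 0.00713) and Sod2 lower (-0.31 ± 0.11, adjusted p = 0.0295), and neither passed in BTBR ASIV against BTBR vehicle mice (-0.23 ± 0.10, adjusted p = 0.11, and 0.18 ± 0.11, adjusted p = 0.22). Sod3, the extracellular enzyme, was lower in BTBR vehicle than in C57 vehicle mice (-0.27 ± 0.10, adjusted p = 0.0435).

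Ferritin stores iron in a form that does not feed peroxide chemistry. Of its 2 chains, 1 fell in BTBR ASIV against BTBR vehicle mice (50% called, against 29.1% of all genes tested). Ftl1, the light chain, had 168, 163 and 207 FPKM in BTBR ASIV, 256, 207 and 302 in BTBR vehicle, 116, 98.6 and 110.0 in C57 ASIV, and 94.7, 108 and 131 in C57 vehicle libraries. All BTBR libraries lay above all C57 libraries, and BTBR ASIV replicate 3 came next to BTBR vehicle replicate 2. Ftl1 was higher in BTBR vehicle than in C57 vehicle mice by 1.18 ± 0.15 (adjusted p = 0.000102) and lower in BTBR ASIV than in BTBR vehicle mice (-0.50 ± 0.15, adjusted p = 0.0289), with -0.33 after quantile normalization (adjusted p = 0.122). Fth1 had 2066, 1848 and 2481 FPKM in BTBR ASIV, 2011, 1160.3 and 1981 in BTBR vehicle, 1666, 1597 and 2005 in C57 ASIV, and 1820.0, 1937 and 2142 in C57 vehicle libraries. It passed in neither comparison, and its lowest library, BTBR vehicle replicate 2, was also the BTBR vehicle library with the least oligodendrocyte marker signal. Ftl1-ps1, a near copy of Ftl1 that the table lists separately, had 5.81, 5.78 and 9.02 FPKM in BTBR ASIV, 11.6, 8.04 and 15.8 in BTBR vehicle, 4.08, 2.93 and 3.56 in C57 ASIV, and 2.67, 3.28 and 4.12 in C57 vehicle libraries, so reads of the pair may be shared. In all, 6 of the 41 genes (Txn1, Prdx6, Gpx4, Gstp1, Fth1 and Ftl1) have named copies in GENCODE M21, and how reads were split between them is not given.

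The same 41 genes showed no called change with ASIV in C57 mice. Across all genes tested 0% were called by limma in C57 ASIV against C57 vehicle mice, 417 genes had an unadjusted p under 0.05, and the fragment-based test (limma voom) also called 0. The groups of 5 of the 41 genes did not overlap, against 13.1% of all genes tested, and 3.07% of all genes had the unadjusted p above. Differences of the list ran from -0.28 for Gstm1 to 0.17 for Prdx3, and the median was -0.00. The lack of calls in C57 mice does not by itself show that the strains differ in response.

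The test of that difference, (BTBR ASIV minus BTBR vehicle) minus (C57 ASIV minus C57 vehicle), was called for 9 of the 41 genes, 5 with a more positive and 4 with a more negative difference in BTBR mice (22% called, against 14.3% of all genes tested, 6.91% more positive and 7.36% more negative). Nfe2l2, Gstm1, Mgst3, G6pdx and Cat had the more positive difference, and Sqstm1, Gsta4, Prdx5 and Me1 the more negative. Gsta4 was furthest apart, at -0.94 ± 0.12 with ASIV in BTBR mice and 0.16 ± 0.12 in C57 mice. Nfe2l2 differed by 0.82 ± 0.12 with ASIV in BTBR mice and by 0.11 ± 0.12 in C57 mice. Nqo1 and Hmox1, both called in BTBR mice, did not pass this test (0.65 ± 0.25, adjusted p = 0.104, and 0.47 ± 0.20, adjusted p = 0.144).

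**Figure D4:**
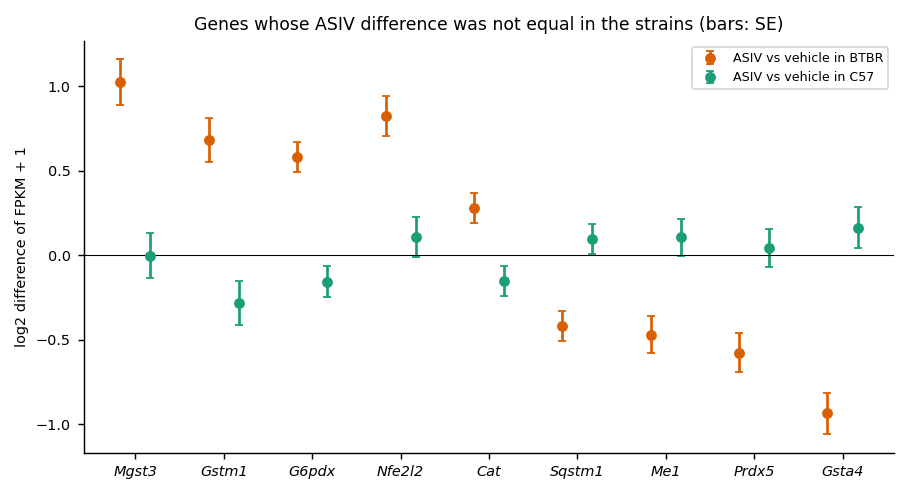
Log2 difference with ASIV against vehicle (log2 of FPKM + 1, bars are standard errors) in BTBR mice and in C57 mice for the 9 genes whose response differed between the strains. Gsta4 lies at -0.94 in BTBR and 0.16 in C57 mice, and Mgst3 at 1.02 in BTBR and -0.00 in C57 mice.

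With ASIV given to both strains, 2 of the 41 genes still differed (4.88%, against 2.53% of all genes tested, 1.31% higher and 1.22% lower). Ftl1 was higher in BTBR ASIV than in C57 ASIV mice (0.72 ± 0.15, adjusted p = 0.03), and Gsto1 was lower (-0.55 ± 0.11, adjusted p = 0.0237). Both had the same sign between the strains under vehicle. Gstm1 came next at 0.45 ± 0.13 (adjusted p = 0.0902), and the groups of 8 of the 41 genes did not overlap, against 26.2% of all genes tested. The Gsto1 call was lost when only the 6 libraries compared were fitted, and neither was called without C57 ASIV replicate 2, C57 ASIV replicate 3 or BTBR ASIV replicate 3.

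Of 97 further genes of the same pathways, listed by function with earlier results of these data known, 88 were tested. In BTBR ASIV against BTBR vehicle mice 12 rose and 12 fell, and in BTBR vehicle against C57 vehicle mice 20 were higher and 23 lower. These are 27.3% and 48.9% of the 88, near the 29.1% and 43.1% of all genes tested, so the counts are no result about these genes as a group. Among 11 other regulators of NRF2, none rose and 3 fell in BTBR ASIV against BTBR vehicle mice (27.3% called, against 29.1% of all genes tested). These were Park7, the DJ-1 protein that stabilises NRF2 (-0.61 ± 0.09, adjusted p = 0.000584), Dpp3, which competes for KEAP1 (-0.68 ± 0.12, adjusted p = 0.00134), and Mafg, a small MAF partner of NRF2 (-0.35 ± 0.11, adjusted p = 0.0314). All 3 were higher in BTBR vehicle than in C57 vehicle mice, at 0.39 ± 0.09, 0.64 ± 0.12 and 0.60 ± 0.11. Of the 11 regulators, 5 were higher, 1 was lower and 5 did not pass in BTBR vehicle against C57 vehicle mice (54.5% called, against 43.1% of all genes tested). Nfe2l2 RNA and the RNA of the 3 named regulators, picked by smallest p, had opposite signs in each comparison. Both comparisons share the BTBR vehicle libraries, so the signs are not separate evidence.

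Among 16 further thioredoxin and methionine sulfoxide genes, 3 rose and 1 fell in BTBR ASIV against BTBR vehicle mice. That is 25% called, against 29.1% of all genes tested. In this list and those below, the 3 genes named had the smallest p in either BTBR vehicle comparison. Msrb2, a mitochondrial methionine sulfoxide reductase, was the one that fell (-1.06 ± 0.08, adjusted p = 1.4e-05), with 11.6 ± 0.773 FPKM in BTBR ASIV, 25.2 ± 1.17 in BTBR vehicle, 12 ± 0.395 in C57 ASIV and 11.9 ± 0.263 FPKM in C57 vehicle mice. Sesn2, a stress-induced sestrin, rose in BTBR ASIV against BTBR vehicle mice (0.30 ± 0.09, adjusted p = 0.0308) and was lower in BTBR vehicle than in C57 vehicle mice (-0.57 ± 0.09, adjusted p = 0.000478). Nxn, nucleoredoxin, was higher in BTBR vehicle than in C57 vehicle mice (0.80 ± 0.13, adjusted p = 0.00045) and did not pass with ASIV in BTBR mice (-0.03 ± 0.13, adjusted p = 0.87).

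In heme and iron handling, 2 of 14 rose and 2 fell in BTBR ASIV against BTBR vehicle mice. That is 28.6% called, near the 29.1% of all genes tested. Pcbp2 and Pcbp1, RNA-binding proteins that also carry iron to ferritin, were the ones that rose (1.65 ± 0.19, adjusted p = 0.000189, and 0.75 ± 0.11, adjusted p = 0.000508). Pcbp2 averaged 11.5 ± 1.96 FPKM in BTBR ASIV, 3.00 ± 0.942 in BTBR vehicle, 17 ± 4.24 in C57 ASIV and 16.9 ± 0.296 in C57 vehicle mice. Blvrb, a biliverdin reductase, fell (-0.75 ± 0.12, adjusted p = 0.000732), with 5.57 ± 0.294 FPKM in BTBR ASIV, 10.1 ± 1.62 in BTBR vehicle, 3.22 ± 0.385 in C57 ASIV and 2.94 ± 0.382 in C57 vehicle mice. Its BTBR ASIV mean thus lay between BTBR vehicle and the C57 groups.

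Among 26 further glutathione and glutaredoxin genes, 3 rose and 2 fell in BTBR ASIV against BTBR vehicle mice. That is 19.2% called, against 29.1% of all genes tested. Gpx8, a peroxidase of the endoplasmic reticulum, and Glrx, cytosolic glutaredoxin, rose (1.01 ± 0.16, adjusted p = 0.000811, and 0.47 ± 0.09, adjusted p = 0.00295). Glrx5, which serves iron-sulfur cluster assembly in mitochondria, fell (-0.59 ± 0.09, adjusted p = 0.000584). Of 13 detoxification and metal defence genes 3 rose and 3 fell (46.2% called, against 29.1% of all genes tested). Mt3, the brain metallothionein, fell (-0.97 ± 0.14, adjusted p = 0.000508), as did Ccs, the copper chaperone of Sod1 (-0.50 ± 0.12, adjusted p = 0.00675), and Akr1a1, an aldehyde reductase (-0.47 ± 0.10, adjusted p = 0.00334). Mt3 averaged 176 ± 8.91 FPKM in BTBR ASIV, 347 ± 48.4 in BTBR vehicle, 213 ± 37.1 in C57 ASIV and 211 ± 20.7 in C57 vehicle mice. Of 8 further NADPH genes 1 rose and 1 fell (25% called, against 29.1% of all genes tested). Me2, the mitochondrial malic enzyme, rose (0.33 ± 0.11, adjusted p = 0.0396). Pgls, which acts between G6pdx and Pgd, fell (-0.41 ± 0.14, adjusted p = 0.0377). Idh2, the mitochondrial isocitrate dehydrogenase, was higher in BTBR vehicle than in C57 vehicle mice (0.77 ± 0.18, adjusted p = 0.00527).

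RefSeq promoter windows (GRCm38.p6, 250 bases before to 50 after the start, 300 bases) were given for 35 of the 41 genes. They were searched on both strands for TGACNNNGC, the core of the antioxidant response element. It was found in 11 of the 35 (31.4%), against 14% of 27025 genes with such a window. The 11 were G6pdx, Gclm, Gstm5, Me1, Mgst1, Nfe2l2, Pgd, Prdx1, Sod1, Srxn1 and Txnrd1. A match was present in 4 of 11 genes that rose, 2 of 6 that fell and 5 of 18 that did not pass in BTBR ASIV against BTBR vehicle mice. The 4 windows of genes that rose are shown 5′ to 3′ on the strand of the gene, to let the match be seen in its setting, with the matching bases in capitals. They are Nfe2l2 (chr2:75704614-75704913, minus strand, match starting at -240 from the start site), G6pdx (chrX:74428831-74429130, minus strand, -57), Prdx1 (chr4:116685349-116685648, plus strand, -133) and Mgst1 (chr6:138140277-138140576, plus strand, -56).
Nfe2l2: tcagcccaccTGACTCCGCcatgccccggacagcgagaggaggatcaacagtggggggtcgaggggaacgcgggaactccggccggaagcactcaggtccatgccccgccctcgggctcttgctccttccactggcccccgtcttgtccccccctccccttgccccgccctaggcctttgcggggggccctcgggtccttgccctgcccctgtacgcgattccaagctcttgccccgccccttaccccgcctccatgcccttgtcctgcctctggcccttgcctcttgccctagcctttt
G6pdx: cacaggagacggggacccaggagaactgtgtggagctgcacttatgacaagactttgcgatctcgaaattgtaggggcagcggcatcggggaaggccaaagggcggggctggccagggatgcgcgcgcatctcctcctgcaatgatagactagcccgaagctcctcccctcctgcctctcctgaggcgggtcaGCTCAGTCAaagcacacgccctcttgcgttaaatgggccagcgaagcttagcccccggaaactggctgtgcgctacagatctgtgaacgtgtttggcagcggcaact
Prdx1: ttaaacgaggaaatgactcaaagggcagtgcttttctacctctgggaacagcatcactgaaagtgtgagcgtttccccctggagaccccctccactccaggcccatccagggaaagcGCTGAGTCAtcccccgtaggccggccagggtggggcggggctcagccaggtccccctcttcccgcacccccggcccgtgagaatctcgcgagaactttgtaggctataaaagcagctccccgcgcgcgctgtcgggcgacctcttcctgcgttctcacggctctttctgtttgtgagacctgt
Mgst1: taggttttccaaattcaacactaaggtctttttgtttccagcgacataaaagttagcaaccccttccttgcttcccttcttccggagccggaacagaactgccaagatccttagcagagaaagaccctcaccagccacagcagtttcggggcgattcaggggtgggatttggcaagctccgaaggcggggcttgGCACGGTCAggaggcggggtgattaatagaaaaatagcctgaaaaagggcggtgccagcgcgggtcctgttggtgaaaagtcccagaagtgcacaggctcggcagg
In Nfe2l2 the match reads in the direction of the gene, and in the other 3 windows it lies on the opposite strand, so that the capitals show its reverse complement. A match is a description of the letters, and binding was not measured.

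The strand of counting is not given in the sources used here, and 11 of the 41 genes overlap a gene on the opposite strand in GENCODE M21, so reads of such pairs cannot be told apart. Trmt112, which overlaps Prdx5, averaged 20.6 FPKM over all libraries, against 90.9 FPKM for Prdx5, and fell in BTBR ASIV against BTBR vehicle mice as Prdx5 did (-0.76 ± 0.09, adjusted p = 0.000193). Mrnip, which overlaps Sqstm1, also fell (-0.56 ± 0.13, adjusted p = 0.00607) but had 2.40 FPKM, against 148 for Sqstm1. Ikbkg, which overlaps G6pdx at a similar level (5.61 FPKM, against 6.63 for G6pdx), had the opposite sign (-0.31 ± 0.12, adjusted p = 0.0749). Rnaseh2a and Junb overlap Prdx2, which averaged 57.4 FPKM. Rnaseh2a (6.67 FPKM) had the opposite sign to Prdx2 in BTBR ASIV against BTBR vehicle mice (-0.79 ± 0.11, adjusted p = 0.000414). Junb, at 45.0 FPKM, had the same sign as Prdx2 there but did not pass (0.26 ± 0.27, adjusted p = 0.514).

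The spread is shared by all groups in these tests, while the variance on the log2 scale averaged over genes was 0.05 in BTBR ASIV, 0.0642 in BTBR vehicle, 0.0376 in C57 ASIV and 0.0226 in C57 vehicle libraries. With only the 6 libraries compared, 10 of the 41 genes were called in BTBR ASIV against BTBR vehicle mice, 6 higher and 4 lower, against 16.6% of all genes tested in that way. Without BTBR vehicle replicate 3 likewise 10 were called, against 24.5% of all genes tested, so the share of the list was then that of the background. In BTBR vehicle against C57 vehicle mice, 16 of the 41 were called without that library, against 36.3% of all genes tested, which is also close to the background. Sqstm1, Gpx1, Prdx5, Gsta4, Gstm1, Mgst3, G6pdx and Me1 kept their call in that comparison under all 24 alternatives, and Nfe2l2 and Nqo1 under the 23 in which they were tested. Between 2 and 15 alternatives ended the call of each of the other 10, among them Cat (12), Prdx6 (8), Txn1 (7), Prdx1 (6), Ftl1 (6) and Hmox1 (5). In BTBR vehicle against C57 vehicle mice Gclm lost its call under 17 alternatives, Txnrd2 and Sod3 under 14, Prdx1 under 7, Nqo1, Hmox1, Prdx4 and Sod2 under 5 and Prdx2 under 3, and 16 genes kept theirs.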

How the data were processed

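Total RNA of mouse mPFC was sequenced in 12 libraries, grouped by title into 4 groups of 3. Per the submitters' processing notes, HISAT2 2.0.5 and mm10 were used. Counter, annotation, strand and any filter: not given in the sources used here. The deposited values are FPKM computed by the authors, with 0 columns of no sample and no value at 0.

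Of 17283 identifiers, 17273 matched GENCODE M21, which gave symbols, positions and exon lengths. FPKM multiplied by exon length fell on steps of 1 fragment: of values under 50 fragments, 97.6 to 98.0% were whole within 0.02. The steps gave depths of 16166327 to 18660041 fragments, so intervals from them would cover counting error only. Counts were not the main input because the recovery rests on an annotation that the sources do not name.

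Genes of at least 1 FPKM in 3 libraries were analysed as log2(FPKM + 1) with 4 group means in limma 3.58.1 (lmFit, eBayes with trend and robust) in R 4.3.3, on all 12 libraries. Benjamini-Hochberg adjustment ran over all genes tested, and a gene was called under 0.05. The contrasts were 2 between strains, 2 of ASIV against vehicle and their interaction. The analysis was tested on simulated data. Python 3.11.15 (numpy 2.4.6, pandas 2.3.3, matplotlib 3.10.9) prepared tables and plots.

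The members and lists were chosen with earlier results of these data known. Values per library are given for Nfe2l2, Keap1, Bach1, Nqo1, Hmox1 and up to 20 other members with the smallest p among those called in either BTBR vehicle comparison, and 3 genes per further list are named. Ftl1-ps1, Gpx4-ps2, Gstp-ps, Fth1, Gclm and the genes on opposite strands were added after their values were seen. Same-numbered libraries correlated at -0.172 to 0.279 in their deviations from the group means, so numbers were not taken as pairs. Alternatives changed the pseudocount, filter, scaling, libraries fitted, test and replicate block, and left out each library.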

Additional observations from a re-analysis of the deposited data

Results flagged for a closer look

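The effect of ASIV differed between the strains for 9 genes, each by limma's test of the interaction, BTBR difference minus C57 difference, with Benjamini-Hochberg adjustment over the genes tested. Gsta4 stood at -1.10 ± 0.17 (adjusted p = 0.00268), G6pdx at 0.74 ± 0.13 (adjusted p = 0.00414), Mgst3 at 1.03 ± 0.19 (adjusted p = 0.00539), Gstm1 at 0.96 ± 0.18 (adjusted p = 0.00624) and Nfe2l2 at 0.71 ± 0.17 (adjusted p = 0.0152). Sqstm1 stood at -0.52 ± 0.13 (adjusted p = 0.0175), Prdx5 at -0.62 ± 0.16 (adjusted p = 0.0241), Me1 at -0.57 ± 0.16 (adjusted p = 0.0284) and Cat at 0.43 ± 0.13 (adjusted p = 0.0423). For 8 of the 9, all but Gstm1, the 3 BTBR vehicle libraries lay outside the range of the 9 other libraries, against 28.7% of all genes tested. BTBR vehicle is part of the contrast that picked these genes, so this position is not separate evidence. In 8 of the 9, all but Nfe2l2, the C57 difference had the opposite sign to the BTBR one, from -0.28 ± 0.13 for Gstm1 to 0.16 ± 0.12 for Gsta4, and none passed in C57 mice. The test picks genes with a large BTBR minus C57 difference, which favours opposite signs. The C57 differences of Mgst3 (-0.00 ± 0.13), Prdx5 (0.04 ± 0.11) and Me1 (0.105 ± 0.110) were smaller than their standard errors. No opposite response in C57 mice is read from these signs. Of 23 alternatives, 14 ended the call of Cat here, 5 that of Me1, 3 that of Prdx5 and 2 that of Sqstm1. The share of mitochondrial fragments was also lowest in the BTBR vehicle libraries, and its part in these values was not tested.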

How the results depend on the processing

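Under the 24 alternatives no called value changed sign: of 1760 recomputed values over 75 gene results, 1613 kept their side of the threshold, 122 lost their call, 25 gained one and 0 reversed. The 1613 include uncalled values whose sign changed by a shift smaller than their standard error. Fitting only the libraries compared gave 10 calls (6 higher, 4 lower) in BTBR ASIV against BTBR vehicle and 1 call, 0 lower, in BTBR ASIV against C57 ASIV, and it cannot be run for the interaction. Leaving out the low-myelin BTBR libraries (replicate 2 of each BTBR group, chosen after seeing the data) gave 2 lower calls in the interaction, and 3 calls, 2 of them higher, in BTBR ASIV against C57 ASIV. Leaving out each library in turn gave 10 to 20 calls (6 to 12 higher, 4 to 8 lower) in BTBR ASIV against BTBR vehicle, 16 to 25 (9 to 12, 7 to 14) in BTBR vehicle against C57 vehicle, 0 to 2 (0 to 2, 0 to 1) in BTBR ASIV against C57 ASIV, 0 to 0 in C57 ASIV against C57 vehicle and 5 to 10 (4 to 6, 1 to 5) in the interaction. The fewest came without BTBR vehicle replicate 3 in the first 2 comparisons and without C57 vehicle replicate 2 in the interaction. There were 8 lower calls in BTBR vehicle against C57 vehicle without C57 vehicle replicate 2 or 3, 6 higher calls in BTBR ASIV against BTBR vehicle without BTBR ASIV replicate 3, and 5 lower ones without BTBR ASIV replicate 1 or 2. With the replicate block, 19 were called in BTBR ASIV against BTBR vehicle, 23 in BTBR vehicle against C57 vehicle and 9 in the interaction, and the numbers did not pair the libraries. The median of all genes moved by less than 0.1 under every scaling. Called under all alternatives were 10 of 20 genes in BTBR ASIV against BTBR vehicle, 16 of 25 in BTBR vehicle against C57 vehicle, 0 of 2 in BTBR ASIV against C57 ASIV and 5 of 9 in the interaction. Depth limits Nqo1 most, and Nqo1 was 1.27 in BTBR ASIV against BTBR vehicle and -0.98 in BTBR vehicle against C57 vehicle by limma voom. The cause of the lost calls was not tested.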
